A study of Mus musculus with 2 samples.

Results

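This account follows 41 genes of S phase and DNA replication through 5 sorted populations of mouse thymus cells. The genes were picked by symbol from the gene table of the deposited matrix, and all 41 were found among its 27998 genes. They cover origin licensing (Orc1, Orc6, Cdc6, Cdt1 and Mcm2 to Mcm7), helicase activation (Mcm10, Cdc45, Gins1, Gins2), the E cyclins (Ccne1, Ccne2), polymerases and primase (Pola1, Prim1, Pold1, Pole), the sliding clamp and its loader (Pcna, Rfc2 to Rfc5), lagging strand joining (Fen1, Lig1), single-stranded DNA and fork protection (Rpa1, Rpa2, Tipin), deoxynucleotides and uracil (Tyms, Rrm1, Rrm2, Dut, Tk1, Ung) and chromatin at the fork (Chaf1a, Chaf1b, Uhrf1, Hells, Slbp).

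The cells came from the thymus of C57BL/6 mice of genotype Bcl11b yfp/yfp, in which a yellow fluorescent reporter marks Bcl11b, a regulator of T-lineage commitment. All cells, the control included, were sorted as Lin- 7AAD- Kit+. Each of 4 fractions was also CD25- Bcl11b- and was then gated as Flt3+ Ly6d- HSA-, as Flt3+ HSA+ without a Ly6d gate, as Flt3- Ly6d- HSA-, or as Flt3- Ly6d+ without an HSA gate. Flt3 encodes a receptor tyrosine kinase found on early progenitors, Ly6d encodes an antigen on the surface of lymphoid progenitors, and HSA is another name for CD24. The control sort carried no further gate, so it also holds cells past the CD25 and Bcl11b gates. Age, sex and number of the mice were not stated in the labels, nor was pooling of animals.

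A cell that is about to divide copies its genome in S phase. Origins are licensed when ORC, Cdc6 and Cdt1 load the ring of Mcm2 to Mcm7 onto DNA, and the ring becomes a working helicase once Mcm10, Cdc45 and the GINS proteins join it. Polymerases then extend primers on a sliding Pcna clamp that the Rfc complex loads, while ribonucleotide reductase and thymidylate synthase supply deoxynucleotides. Many of these genes are read out from promoters that E2F factors bind, and their RNA rises in late G1 and S phase. Early thymic progenitors are known to divide several times before they commit to the T lineage.

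The E2F motif was therefore sought in the promoters of these genes. RefSeq promoter windows of the GRCm38.p6 build (mm10), from 250 bases before to 50 bases after each gene's start, were at hand for 34 of the 41 genes. A gene was counted when any of its windows held TTTCCCGC, TTTCGCGC, TTTGCCGC or TTTGGCGC on either strand. Matches may overlap, as when TTTGGCGC on one strand runs into TTTCGCGC on the other. The following stretches are shown because they hold such a match in genes whose RNA is described further on. A further condition was that none overlaps a GENCODE M21 exon of its own gene. Overlap with exons of other genes was not checked. Each is written 5′ to 3′ in the direction of the gene, and capitals mark the match.
Mcm6, minus strand, chr1:128359788-128359831: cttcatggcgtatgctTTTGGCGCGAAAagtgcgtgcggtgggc
Mcm6, minus strand, chr1:128359729-128359768: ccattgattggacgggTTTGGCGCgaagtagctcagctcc
Mcm5, plus strand, chr8:75109340-75109383: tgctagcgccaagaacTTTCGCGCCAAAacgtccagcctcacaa
Cdc6, plus strand, chr11:98907997-98908036: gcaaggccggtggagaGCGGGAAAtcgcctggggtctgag
Pola1, minus strand, chrX:93632270-93632309: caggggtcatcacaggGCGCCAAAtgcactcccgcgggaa
Uhrf1, plus strand, chr17:56304112-56304151: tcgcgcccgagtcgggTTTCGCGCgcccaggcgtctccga

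Distances are to the RefSeq start of the window shown. The 3 matches of Mcm6 began 110, 106 and 47 bases before the start, and those of Mcm5 began 153 and 149 bases before it. The match lay 138 bases before the start in Cdc6 and in Pola1, and 185 bases before it in Uhrf1. The stretches of Cdc6 and Uhrf1 lie inside the GENCODE span of their gene, which begins at 98907801 for Cdc6 and at 56303321 for Uhrf1, and Uhrf1 has another RefSeq window without a match. In all, 13 of the 34 genes had the motif in a window (38.2%, exact 95% interval 22.2 to 56.4%), against 704 of 27025 genes in the whole table (2.61%). Of the 13, 7 were among the 9 licensing genes with a window, whereas none of the 6 deoxynucleotide and uracil genes had the motif. For comparison, 1 of 31 G2 and M phase genes had it. The CCAAT box (CCAAT on either strand) was found for 20 of the 34 genes (58.8%), for 25 of the 31 G2 and M phase genes (80.6%) and for 41.1% of all genes of the table. A match is a description of the letters and no evidence that a factor binds there.

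Each population came from 1 sort, all 5 shared 1 cDNA library, and cells are not replicates, so no test between populations was possible. UMIs (unique molecular identifiers, which count RNA molecules captured at their 3′ ends) were summed over the cells of a sort and scaled to a total of 1000000 (CPM). Intervals are 95% and cover counting error only. The sorts held 847 to 3302 cells, with totals of 10616041 to 57199129 UMIs and medians per cell of 9860 to 21152 UMIs. A 95% Poisson interval reached a median of 2.64% above or below a gene's CPM in the control and of 8.32% in the Flt3- Ly6d+ sort, and at most 34.2%, for Orc1 in the latter. RNA of the gate genes Flt3 and Ly6d followed the gates: Flt3 stood at 87.7 and 64.1 CPM in both Flt3+ sorts and at 23.8 and 14.2 CPM in both Flt3- sorts, and Ly6d at 431 CPM in the Flt3- Ly6d+ sort against 11.3 to 17.5 CPM in the other gated sorts.

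Cells with granulocyte RNA stand apart inside the sorts and weigh unequally on the values below. At least 7 of 14 granulocyte markers (such as Mpo, Elane and Prtn3) had a UMI in 70 of 1412 cells of the Flt3+ Ly6d- HSA- sort (4.96%), in 28 of 1182 Flt3+ HSA+ cells (2.37%), in 101 of 1205 Flt3- Ly6d- HSA- cells (8.38%), in 1 of 847 Flt3- Ly6d+ cells and in 49 of 3302 control cells (1.48%). The class is a range of marker counts, not a type. Over all sorts, 22 cells held 6 markers and 10 held 7. The 101 cells of the Flt3- Ly6d- HSA- sort carried 20.3% of its UMIs and 36.7% of its UMIs in the 41 genes, from 26.9% for Mcm6 to 73.8% for Rrm2. In the Flt3+ Ly6d- HSA- sort the class carried 10.8% of all UMIs and 12.9% of the 41 genes' UMIs. These shares were 5.405% and 5.309% in Flt3+ HSA+, and 3.30% and 3.41% in the control, so they were nearly equal there. Each of the 5 comparisons of the 41 genes is therefore given over all cells and without this class. Other shares and counts are over all cells unless stated. The summed CPM of the 14 markers was 3196, 2909, 4598, 417.5 and 1090 in the order of sorts used below. Summed over the other lists, mast cell and basophil markers (8 genes) reached 10.5, 14.5, 74.2, 8.20 and 19.4 CPM in that order, dendritic markers (10 genes) 37.2 to 115.7, B cell markers (9 genes) 41.02 to 58.6, NK and innate lymphoid markers (9 genes) 357 to 481, and erythroid markers (9 genes) 29.8, 68.9, 195.2, 563.9 and 554 in that order, with Hba-a1 and Hba-a2 at 0 in every sort. The part of these other cell types in the results was not tested.

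The 41 genes together took 4224 CPM in the Flt3+ Ly6d- HSA- sort (95% interval 4198 to 4249), 4732 in Flt3+ HSA+ (4705 to 4758), 2687 in Flt3- Ly6d- HSA- (2659 to 2714), 2973 in Flt3- Ly6d+ (2940 to 3006) and 4929 in the control (4910 to 4947). The genes thus split the gated sorts by the Flt3 gate: both Flt3- sorts were low and both Flt3+ sorts stood nearer to the control. The control, which had no Flt3 gate, went against this split when ranked by Flt3 RNA. It held Flt3 at 18.0 CPM, between the Flt3- sorts at 23.8 and 14.2 CPM, yet had the highest sum of the 41 genes. Without the granulocyte class the sums were 4124, 4736, 2133, 2977 and 4923 CPM, so the gap between both Flt3- sorts widened while the other sorts hardly moved. Gene by gene the order was similar. The Flt3- Ly6d- HSA- sort was the lowest of the 5 for 34 of the 41 genes and the Flt3- Ly6d+ sort for the other 7 (Orc1, Orc6, Cdc6, Ccne1, Rfc4, Tk1 and Hells). For Rfc4 both Flt3- sorts were level within counting error (54.3 against 54.4 CPM). Without the class the Flt3- Ly6d- HSA- sort was the lowest for all 41. The control was the highest for 27 genes and the Flt3+ HSA+ sort for 13, and Ung, which removes uracil from DNA, was the only gene highest in Flt3+ Ly6d- HSA-. The lead of Ung over the control lay within counting error (82.4 against 81.5 CPM).

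**Figure D1:**
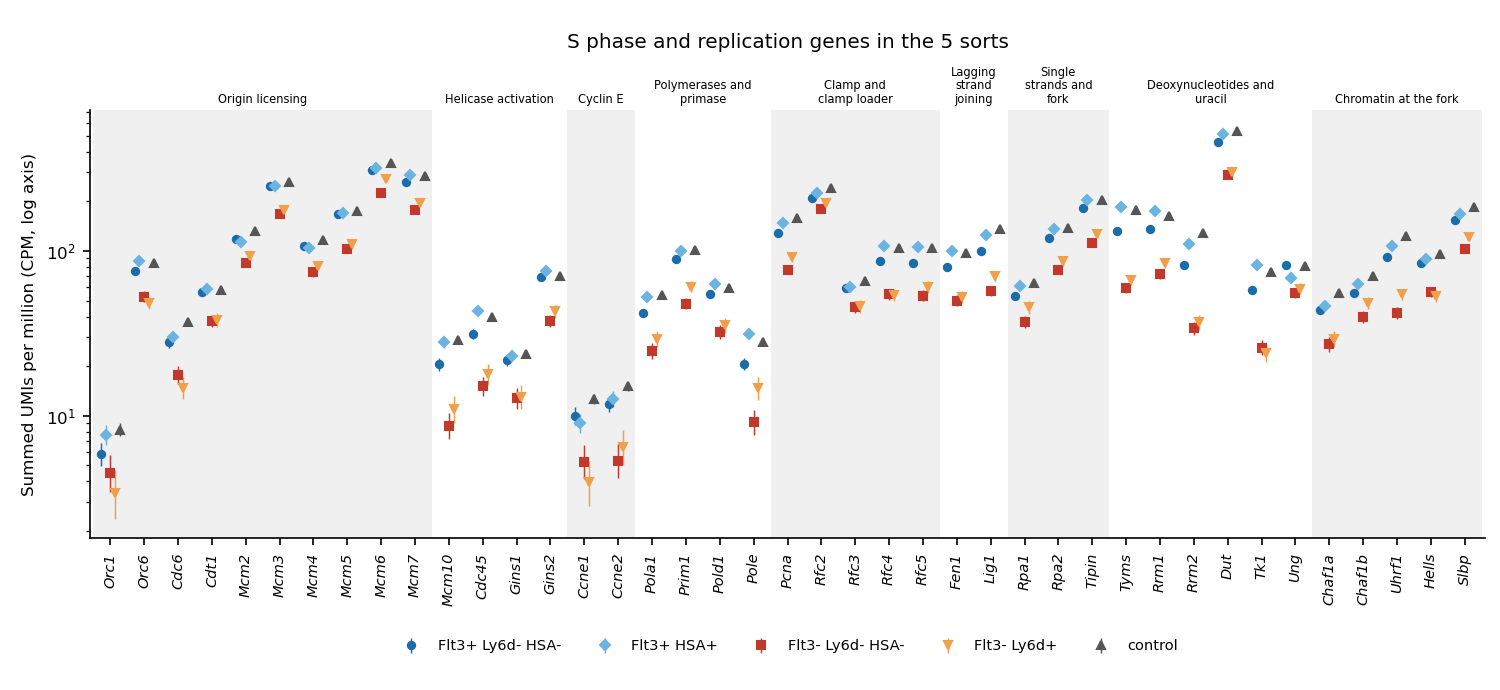
Summed UMIs scaled to 1000000 (CPM, log axis) of the 41 genes in the 5 sorts, grouped by role, with 95% Poisson intervals that cover counting error only. The squares and downward triangles of both Flt3- sorts lie below the other 3 symbols for nearly every gene, with the smallest distance at Rfc2.

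In what follows, 5 values in a row are CPM over all cells in the order Flt3+ Ly6d- HSA-, Flt3+ HSA+, Flt3- Ly6d- HSA-, Flt3- Ly6d+ and control. Among the licensing genes, Mcm6 (ENSMUSG00000026355, chr1:128331590-128359664, minus strand, mm10 with GENCODE M21), a subunit of the replicative helicase ring, stood at 309.8, 320.2, 224.7, 271.1 and 341.1 CPM. Mcm3, another ring subunit, stood at 245.9, 248.6, 167.5, 176.2 and 261.4 CPM. Mcm7, one more subunit of that ring, stood at 260.4, 288.1, 177.2, 194.5 and 285.4 CPM. All 3 were lowest in Flt3- Ly6d- HSA-, and for Mcm3 the CPM of both Flt3+ sorts did not differ beyond counting error (ratio 1.011, 95% interval 0.976 to 1.05). The highest over the lowest of the 4 gated sorts was 1.39 to 1.64 times for Mcm2 to Mcm7, against 1.26 times for Rfc2, the lowest of the 41 genes, and 3.43 times for Tk1, the highest. Cdc6, which loads the ring, spread further than the ring on this measure, by 2.04 times. It ran from 14.8 CPM in Flt3- Ly6d+ to 30.2 CPM in Flt3+ HSA+, and stood at 37.2 CPM in the control.

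Of the helicase activators, Mcm10 and Cdc45 spread more widely over the gated sorts than any licensing gene, by 3.20 and 2.86 times. Gins2 and Gins1 did not, at 2.01 and 1.82 times, beside 2.26 times for the licensing gene Orc1. Mcm10, which helps to open the loaded ring, stood at 20.5, 27.9, 8.70, 10.9 and 29.0 CPM. Cdc45, the helicase cofactor, stood at 31.4, 43.2, 15.1, 17.9 and 39.8 CPM. Gins2, a subunit of the GINS complex, stood at 69.1, 75.5, 37.6, 42.95 and 69.97 CPM. All 3 were low in both Flt3- sorts, and for Mcm10 and Cdc45 the intervals of the ratio between these sorts included 1 (0.965 to 1.63 and 0.968 to 1.45). Without the granulocyte class Mcm10 stood at 10.95 CPM in Flt3- Ly6d+ against 4.65 CPM in Flt3- Ly6d- HSA- (ratio 2.35, 1.68 to 3.33), and Cdc45 at 17.9 against 9.22 CPM (ratio 1.945, 1.52 to 2.497). The E cyclins drive entry into S phase with Cdk2. Ccne1 stood at 9.99, 9.02, 5.28, 3.96 and 12.7 CPM, and Ccne2 at 11.8, 12.7, 5.35, 6.50 and 15.1 CPM. Few cells carried them: 10 cells held 47.6% of the 42 Ccne1 UMIs of the Flt3- Ly6d+ sort and 37.8% of the 74 in Flt3- Ly6d- HSA-.

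At the fork, Prim1, the primase subunit that starts each strand, stood at 89.7, 99.5, 47.9, 60.7 and 100.7 CPM. Pola1, the catalytic subunit of polymerase alpha, stood at 42.1, 52.8, 24.75, 29.3 and 53.8 CPM. Pold1, the catalytic subunit of polymerase delta, stood at 54.99, 62.8, 32.3, 35.3 and 59.6 CPM. All 3 were lower in both Flt3- sorts than in the other 3 sorts. Flt3- Ly6d+ stood above Flt3- Ly6d- HSA- by 1.26 times for Prim1 (95% interval 1.13 to 1.41) and 1.09 times for Pold1 (0.951 to 1.26, an interval that includes 1). Pcna, the sliding clamp, stood at 128.8, 146.7, 76.5, 91.6 and 157.5 CPM. Rfc4, a clamp loader subunit, stood at 87.1, 106.8, 54.4, 54.3 and 103.5 CPM. Rfc2 (ENSMUSG00000023104, chr5:134581366-134601805, plus strand), another subunit of the same loader, stood at 208.6, 224.9, 178.3, 196.1 and 241.3 CPM, with the narrowest spread of the 41 genes. Subunits of the same clamp loader thus differed between sorts by unequal factors.

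Lig1, the ligase that seals Okazaki fragments, stood at 100.3, 124.2, 57.5, 69.99 and 135.2 CPM. Fen1, the nuclease that trims their flaps, stood at 80.04, 99.5, 50.01, 52.3 and 96.8 CPM. Among the proteins that guard single strands and the fork, Rpa1 stood at 53.2, 60.85, 36.95, 45.5 and 63.99 CPM. Rpa2, a second subunit of the same complex, stood at 119.9, 135.2, 76.5, 87.0 and 136.8 CPM. Tipin, which steadies the fork, stood at 181.1, 203.1, 111.9, 125.9 and 204.1 CPM. All of these were lower in both Flt3- sorts than in the other 3.

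Of the deoxynucleotide genes, Tk1, Rrm2 and Tyms were among the steepest of the 41: their highest over their lowest CPM among the gated sorts was 3.43, 3.21 and 3.09 times, beside 3.42 for Pole, 3.20 for Mcm10, 1.77 for Dut and 1.48 for Ung. Tyms, thymidylate synthase, stood at 131.3, 183.8, 59.6, 66.8 and 177.1 CPM. Rrm1, the large subunit of ribonucleotide reductase, stood at 135.2, 174.2, 72.1, 84.7 and 163.1 CPM. Rrm2 (ENSMUSG00000020649, chr12:24708241-24714146, plus strand), its small subunit, stood at 81.8, 109.4, 34.0, 36.9 and 128.8 CPM, and without the granulocyte class at 67.4, 100.1, 11.2, 37.0 and 126.8 CPM. The small subunit thus spread more than the large one, and its level in Flt3- Ly6d- HSA- rested mainly on the granulocyte class. Dut, which removes dUTP, stood at 458.1, 508.4, 287.5, 299.6 and 535.9 CPM. Of the chromatin genes, Uhrf1, which carries DNA methylation through replication, stood at 91.4, 107.1, 42.0, 54.45 and 122.8 CPM. Slbp, which binds histone mRNA, stood at 153.1, 167.1, 102.2, 121.3 and 185.6 CPM, and Hells, a chromatin remodeler, at 83.9, 89.5, 56.6, 53.4 and 96.05 CPM. For Hells both Flt3- sorts did not differ beyond counting error (ratio 0.943, 0.845 to 1.05).

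The first comparison set the Flt3- Ly6d- HSA- sort over the Flt3+ Ly6d- HSA- sort, which differ in the Flt3 gate alone. All 41 genes were lower in the Flt3- sort, and 27 were at least 1.5-fold lower with 5 CPM or more in either sort, whereas 4.59% of 9210 measured genes were that much lower. The median log2 ratio of the 41 was -0.68, beside 0.03 over all measured genes. Here and in the comparisons below, counts of genes higher or lower by any amount have no all-gene share beside them and describe direction alone. Rrm2 differed most, at 34.0 against 81.8 CPM, or 2.40-fold lower (95% interval 2.17 to 2.66), and Rfc2 least, at a ratio of 0.855 (0.814 to 0.897). All 4 helicase activators, all 4 polymerase genes and both E cyclins passed 1.5-fold, but only 3 of the 10 licensing genes did. Without the granulocyte class 39 genes passed, beside 6.26% of all genes, with a median log2 ratio of -1.04. Rrm2 was then 6.02-fold lower (5.01 to 7.29) and all 10 licensing genes passed. The genes that stayed inside 1.5-fold were Rfc2 and Rfc3, with ratios of 0.782 and 0.667.

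**Figure D2:**
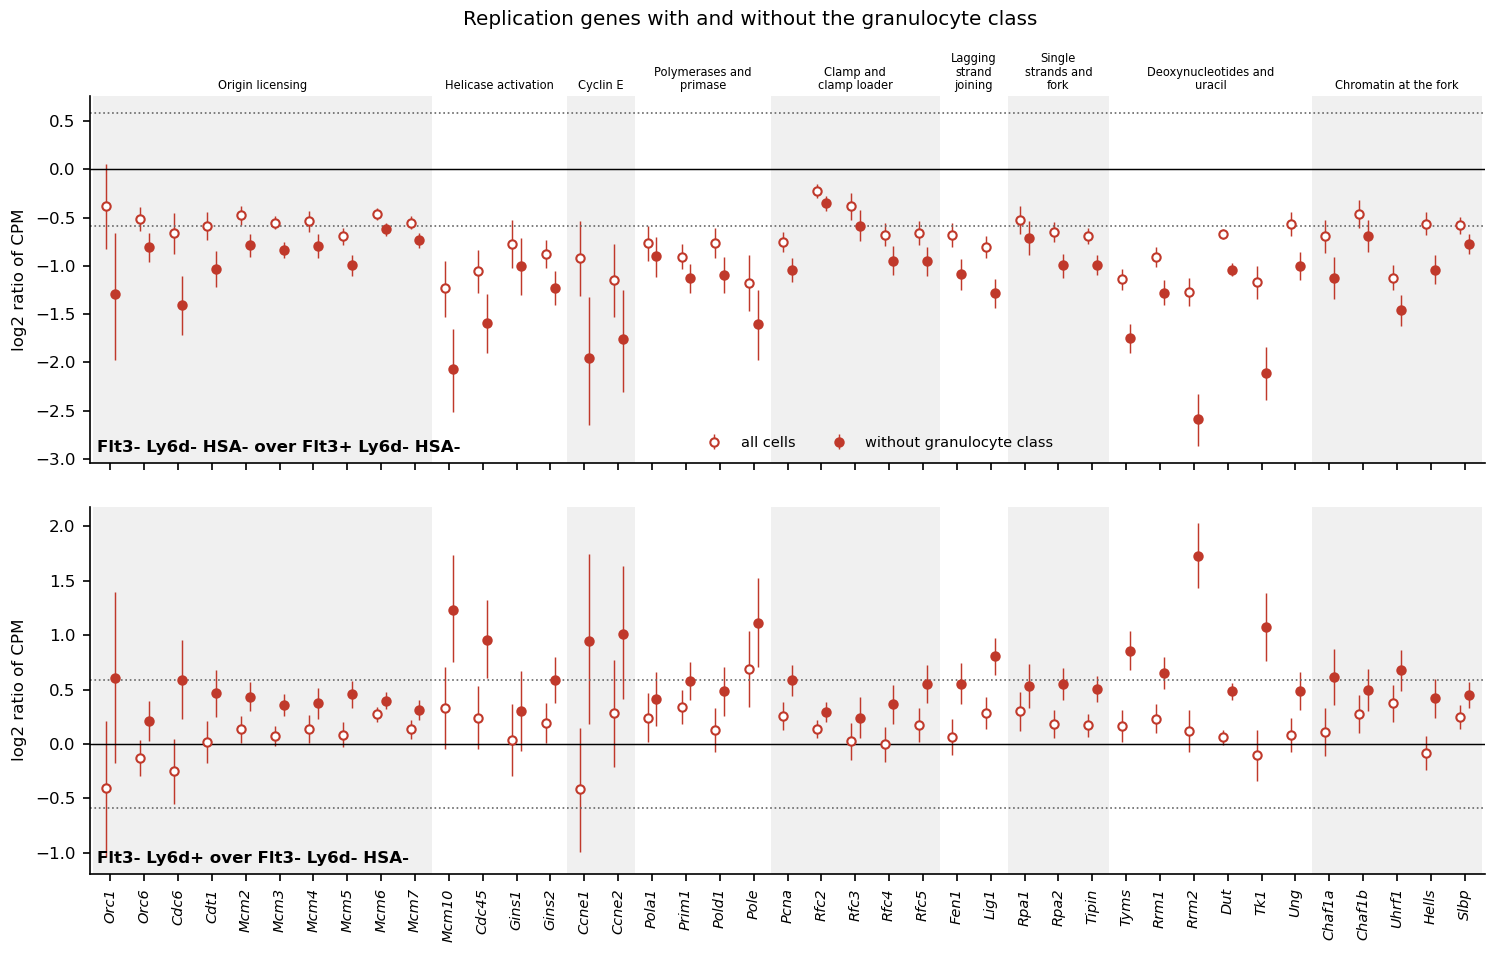
Log2 ratio of CPM for the 41 genes in Flt3- Ly6d- HSA- over Flt3+ Ly6d- HSA- (upper panel) and in Flt3- Ly6d+ over Flt3- Ly6d- HSA- (lower panel), over all cells (open) and without the granulocyte class (filled), with 95% intervals for counting error and dotted lines at 1.5-fold. Leaving out the class moves every gene down in the upper panel and up in the lower panel, farthest for Rrm2.

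The second comparison set Flt3+ HSA+ over Flt3+ Ly6d- HSA-. The differences were small: 37 of the 41 genes were higher in Flt3+ HSA+, with a median log2 ratio of 0.17. Only Pole, the catalytic subunit of polymerase epsilon, was at least 1.5-fold higher, at 31.3 against 20.6 CPM (ratio 1.52, 1.36 to 1.70), beside 2.05% of 9066 measured genes. Ung went the other way, at 68.5 against 82.4 CPM (ratio 0.832, 0.780 to 0.887). Ring subunits were nearly level, with ratios of 0.953 to 1.11 for Mcm2 to Mcm7. Without the class Cdc45 and Tk1 also passed 1.5-fold, beside 2.24% of all genes. The count was 7 with each cell given equal weight (all genes 2.67%), 11 after thinning each cell to 3000 UMIs (4.75%), 2 without the 5% of cells with most UMIs (2.34%), 6 without cells with 4 or more granulocyte markers (2.35%) and 7 in cells with no G2 and M phase UMI (5.22%).

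The third comparison set Flt3- Ly6d+ over Flt3- Ly6d- HSA- and shares the latter sort with the first. Over all cells 34 of 40 measured genes were higher in Flt3- Ly6d+, with a median log2 ratio of 0.14. Pole alone passed 1.5-fold, at 14.7 against 9.13 CPM (ratio 1.61, 1.27 to 2.05), beside 1.75% of 9178 measured genes. Without the granulocyte class 14 of 39 measured genes passed, beside 2.44% of all genes, and the median log2 ratio was 0.50. These were Rrm2, Tk1, Tyms and Rrm1 of the nucleotide genes, Mcm10, Cdc45 and Gins2 of the helicase activators, and Ccne2, Cdc6, Pole, Pcna, Lig1, Chaf1a and Uhrf1. Rrm2 led with 37.0 against 11.2 CPM (ratio 3.31, 2.70 to 4.08). Without all cells with 4 or more of the markers 19 genes passed (all genes 2.71%), whereas 3 did with equal weight (1.65%), 4 after thinning (4.53%), 3 without the 5% of cells with most UMIs (1.29%) and 1 in cells with no G2 and M phase UMI (2.98%). The difference between both Flt3- sorts thus depended on the class, of which the Ly6d+ sort held 1 cell and the Ly6d- sort 101.

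The fourth comparison set Flt3- Ly6d+ over Flt3+ HSA+, which share sorts with the comparisons above. All 41 genes were lower in Flt3- Ly6d+, and 30 were at least 1.5-fold lower, beside 7.31% of 9236 measured genes. The median log2 ratio was -0.81. Tk1, thymidine kinase, differed most, at 24.0 against 82.3 CPM (3.43-fold lower, 3.01 to 3.92), followed by Rrm2 (2.96-fold lower, 2.67 to 3.30). Rfc2 differed least, with a ratio of 0.872 (0.829 to 0.917). These sorts hold 1 and 28 cells of the granulocyte class, and without them the count was again 30, beside 6.77% of all genes. The 11 genes inside 1.5-fold included Mcm2, Mcm3, Mcm4 and Mcm6, with ratios of 0.827, 0.709, 0.779 and 0.847.

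The last comparison set the control over the mean of the 4 gated populations, each with equal weight. All 41 genes were higher in the control, and 11 were at least 1.5-fold higher, beside 3.57% of 9206 measured genes, with a median log2 ratio of 0.44. Rrm2 led with a ratio of 1.97 (1.90 to 2.04), followed by Ccne1 with 1.79 (1.60 to 2.01) and Mcm10 with 1.71 (1.59 to 1.84). Rfc2 was again the least different, at 1.20 (1.17 to 1.22). Without the class 13 genes passed, beside 4.09% of all genes. Among cells with no G2 and M phase UMI in 3000, 0 of 38 measured genes passed, beside 2.68% of all genes, and the summed ratio fell from 1.35 to 1.06.

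The per-cell values showed how the cells of a sort were spread. The median cell held 0.333% of its UMIs in the 41 genes in Flt3+ Ly6d- HSA- (quartiles 0.157 and 0.545%), 0.446% in Flt3+ HSA+ (0.255 and 0.651%), 0.119% in Flt3- Ly6d- HSA- (0.0764 and 0.264%), 0.138% in Flt3- Ly6d+ (0.0870 and 0.341%) and 0.362% in the control (0.131 and 0.655%). Most Flt3- cells were thus low, with a long tail upward, while Flt3+ HSA+ cells were spread evenly over the range. Because depth differed, each cell was also thinned to 3000 UMIs, which left out 6 to 52 shallower cells per sort. At least 10 of the 3000 UMIs fell in the 41 genes in 51.6% of Flt3+ Ly6d- HSA- cells (exact 95% interval 48.95 to 54.2%), 65.4% of Flt3+ HSA+ cells (62.6 to 68.1%), 21.3% of Flt3- Ly6d- HSA- cells (18.97 to 23.8%), 27.2% of Flt3- Ly6d+ cells (24.2 to 30.4%) and 53.5% of control cells (51.7 to 55.2%).

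Without the granulocyte class these shares were 50.2, 65.2, 16.2, 27.3 and 53.1%. Within the class the share was 78.6% of 70 cells in Flt3+ Ly6d- HSA- and 74.3% of 101 cells in Flt3- Ly6d- HSA-, so class cells were high in these genes in either sort. Cells at the 5th percentile held 0.0364 to 0.104% of their UMIs in the 41 genes. All sorts shared the droplets of 1 library, and how much of these low values was RNA free in the suspension was not tested.

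**Figure D3:**
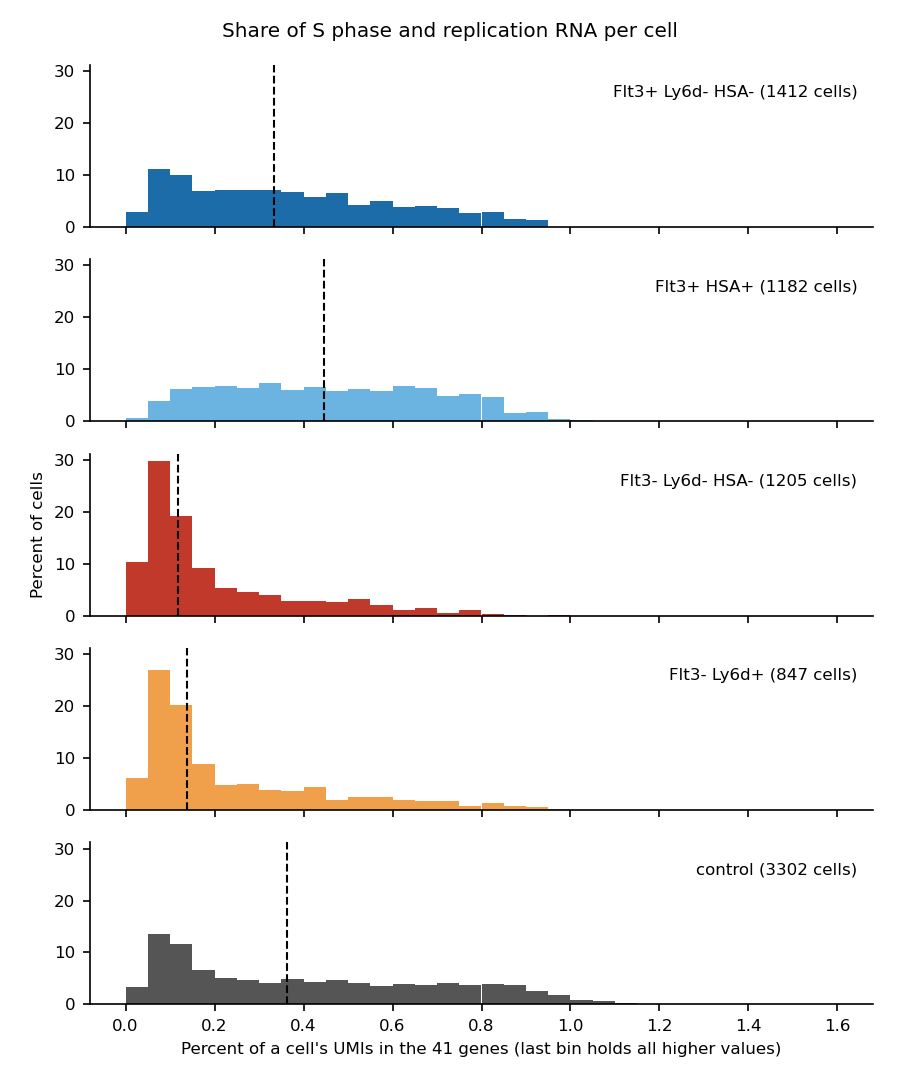
Percent of cells (vertical axis) by the percent of a cell's UMIs in the 41 genes (horizontal axis, bins of 0.05) in each sort, with the median as a dashed line. The medians of both Flt3- sorts, 0.119 and 0.138%, lie left of the other medians, which run from 0.333 to 0.446%.

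Replication genes and G2 and M phase genes mark neighbouring parts of the cell cycle, and the sorts differed in both. Of the thinned cells, 33.0% of Flt3+ Ly6d- HSA-, 56.0% of Flt3+ HSA+, 9.48% of Flt3- Ly6d- HSA-, 12.2% of Flt3- Ly6d+ and 36.2% of control cells had 5 or more UMIs of 37 G2 and M phase genes (such as Mki67, Top2a and Ccnb1). Among cells with none of these UMIs, at least 10 replication UMIs were found in 32.0, 48.6, 11.3, 13.2 and 26.6%, so the gap between Flt3+ and Flt3- sorts was present in these cells too. Such cells numbered 138 to 638 per sort. In these cells alone, 24 of 38 measured genes passed 1.5-fold with the lower value in Flt3- Ly6d- HSA- against Flt3+ Ly6d- HSA-, beside 4.37% of all genes. In the same cells 33 of 39 passed with the lower value in Flt3- Ly6d+ against Flt3+ HSA+, beside 7.87% of all genes. Without the granulocyte class the shares with 5 or more G2 and M phase UMIs were 30.9, 55.5, 7.08, 12.2 and 35.8%.

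The joint classes separated both Flt3+ sorts. Cells with 10 or more replication UMIs and under 5 G2 and M phase UMIs made up 30.96% of Flt3+ Ly6d- HSA- and 27.3% of Flt3+ HSA+ cells (exact 95% intervals 28.6 to 33.5% and 24.8 to 29.9%), which overlap. Cells high in both made up 20.6% and 38.1%, and cells low in both 36.0% and 16.7%. Low in both were also 73.9% of Flt3- Ly6d- HSA-, 68.4% of Flt3- Ly6d+ and 38.2% of control cells. Without the granulocyte class 79.3% of Flt3- Ly6d- HSA- cells were low in both. Cells high in both made up 2.644% of that sort without the class, against 4.655% over all its cells. Depth moved with the classes: in the control the median was 10409 UMIs for cells low in both and 24331 UMIs for cells high in both, before thinning. The part of depth in these shares beyond the thinning was not tested.

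Within a sort, the 41 genes differed in how they followed the G2 and M phase genes. Cells with 5 or more G2 and M phase UMIs were set over cells with none, without the granulocyte class. At least 1.5-fold higher were 28 of 41 genes in Flt3+ Ly6d- HSA- (beside 8.37% of all genes), 23 in Flt3+ HSA+ (8.75%), 35 of 40 in Flt3- Ly6d- HSA- (12%), 39 in Flt3- Ly6d+ (11.5%) and 37 in the control (9.08%). Rrm2 was 7.22 to 26.2-fold higher over the 5 sorts, Tk1 6.11 to 29.1-fold and Tyms 4.30 to 9.69-fold. Cells with 5 or more such UMIs numbered 75 in Flt3- Ly6d- HSA- and 101 in Flt3- Ly6d+, against 412 to 1145 in the other sorts. In Flt3- Ly6d- HSA- Rrm2 and Tk1 stood at only 11.2 and 11.5 CPM without the class, so their ratios there rest on low counts. Among the ring subunits Mcm6 had ratios of 0.780 to 1.49 and Mcm2 of 0.700 to 1.68, the highest of both in Flt3- Ly6d+, where Mcm2 passed 1.5-fold. Mcm5 and Mcm7 passed it in both Flt3- sorts and the control. Ung had the lowest ratios, with 0.384 in Flt3+ HSA+, 0.773 in Flt3+ Ly6d- HSA-, 1.03 in the control, 1.36 in Flt3- Ly6d- HSA- and 1.42 in Flt3- Ly6d+. Of the 41 genes, Ung in Flt3+ HSA+ was the only one at least 1.5-fold lower, beside 11.3% of all genes there.

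**Figure D4:**
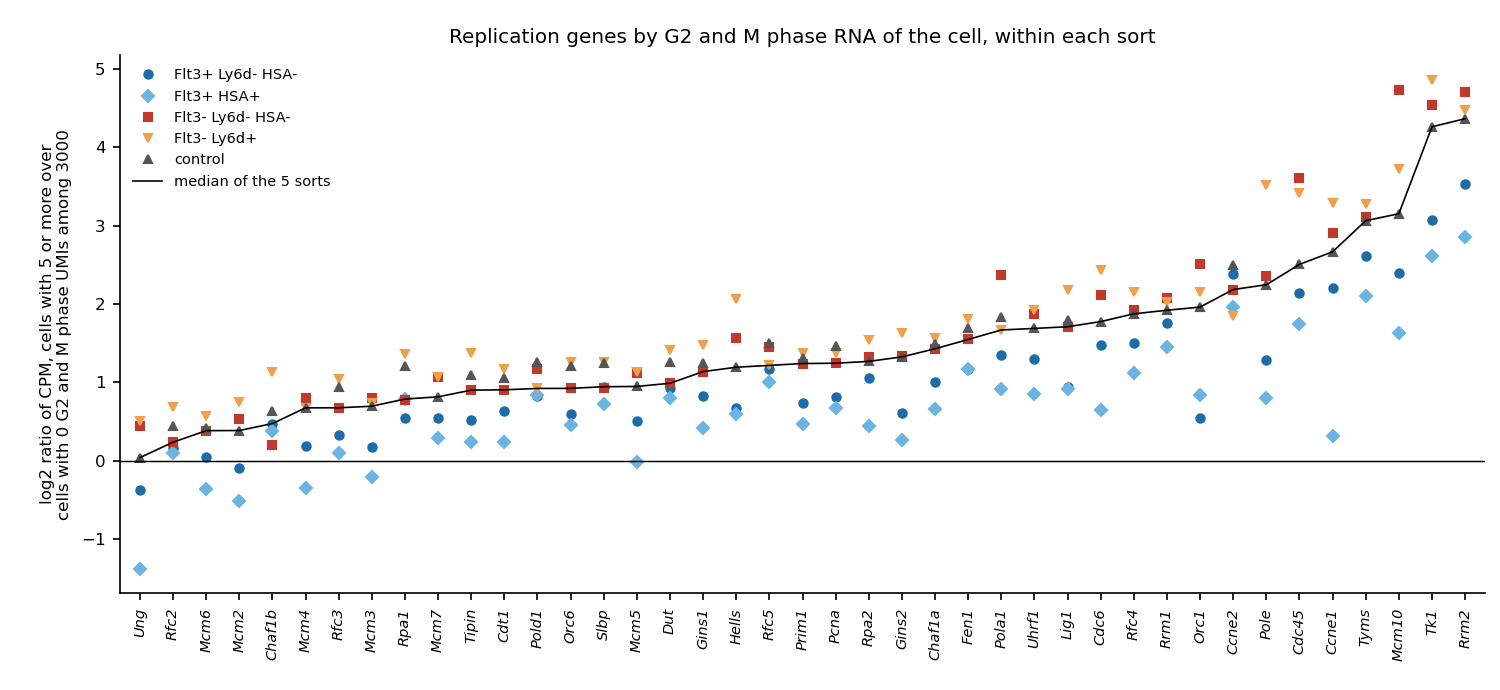
Log2 ratio of CPM (vertical axis) in cells with 5 or more over cells with 0 G2 and M phase UMIs among 3000, for the 41 genes ordered by their median over the sorts, without the granulocyte class. Rrm2, Tk1, Mcm10 and Tyms lie at the right end of this order, and Ung, Rfc2, Mcm6 and Mcm2 at the left end, where several points of both Flt3+ sorts lie below 0.

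To see which genes tracked the rest of the group, cells were split for each gene by the UMIs of the other 40 genes among 3000, at 10 or more against 3 or fewer, again without the class. These ratios describe how the group hangs together and have no test. Rrm2 had the highest median ratio of the 41 genes over the sorts (61.9), from 37.0 in Flt3+ HSA+ to 92.4 in Flt3- Ly6d- HSA-, where the low cells held 2 UMIs and the 95% interval ran from 24.9 to 773. Ung had ratios of 15.8 to 30.2, whereas its ratios in the split by G2 and M phase UMIs were 0.384 to 1.42. Rfc2 had the smallest ratio of the 41 genes in all 5 sorts, from 2.17 to 2.54. Cells with 10 or more of these UMIs had 1.69 to 2.13 times the median UMIs of cells with 3 or fewer.

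Genes outside the 41 were split by the same cells. The 37 other replication genes (such as Clspn, Gmnn and Pole2) were together 1.82 to 2.30 times higher in the cells with 10 or more replication UMIs, and 24 genes of chromatin and repair at the fork (such as Asf1b) 2.33 to 3.13 times. The G2 and M phase genes had higher sums there in 4 sorts, by 1.33 times in Flt3+ Ly6d- HSA-, 2.30 in Flt3- Ly6d- HSA-, 4.36 in Flt3- Ly6d+ and 2.20 in the control. In Flt3+ HSA+ they were lower, with 3896 against 6434 CPM (ratio 0.605). Samhd1, which breaks down deoxynucleotides, was lower in the cells with 10 or more replication UMIs in all 5 sorts, with ratios of 0.310 to 0.587.

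The same lists were then counted between sorts by the rule used above, so the background shares given there apply. In Flt3- Ly6d- HSA- over Flt3+ Ly6d- HSA-, 12 of 36 measured other replication genes were at least 1.5-fold lower, and 20 without the class. Among the former was Clspn, a checkpoint adaptor, at 21.4 against 50.7 CPM. Of 24 genes of chromatin and repair at the fork 16 were lower, among them Fanci, of the Fanconi anemia pathway, at 2.21 against 5.32 CPM. Of 19 nucleotide supply genes 2 were lower, among them Mthfd2, a folate enzyme, at 14.8 against 23.2 CPM, and Samhd1 was higher, at 64.3 against 42.9 CPM, beside 4.56% of all genes that much higher. Of 17 measured genes of E2F factors and their partners 4 were lower, led by Ccna2, cyclin A, at 16.7 against 67.5 CPM. All 37 G2 and M phase genes were lower, with a median log2 ratio of -1.80.

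In Flt3+ HSA+ over Flt3+ Ly6d- HSA-, 32 of the 37 mitotic genes passed 1.5-fold upward (median log2 ratio 0.76), against 1 of the 41 replication genes. Of 36 measured other replication genes 1 was higher, Ticrr, which helps to fire origins, at 20.96 against 13.8 CPM. Among the E2F factors E2f2 was higher, at 8.002 against 4.47 CPM, and so was E2f8, at 19.4 against 12.95 CPM. Of 34 measured replication-linked histone genes 19 were higher and 1, Hist1h2bc, was lower, beside 0.750% of all genes that much lower. In Flt3- Ly6d+ over Flt3+ HSA+, 20 of 36 other replication genes, 17 of 24 chromatin and repair genes, 28 of 34 histone genes and all 37 mitotic genes passed 1.5-fold downward. There Samhd1 was again higher, at 66.3 against 31.4 CPM, beside 8.30% of all genes that much higher.

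In Flt3- Ly6d+ over Flt3- Ly6d- HSA-, 0 of 36 other replication genes passed 1.5-fold over all cells and 7 were higher without the class. For G2 and M phase genes 16 of 37 were higher over all cells and 30 without the class. In the control over the gated sorts, 4 of 37 other replication genes were higher, among them Clspn at 73.8 against 42.4 CPM. E2f2 was higher too, at 11.0 against 4.19 CPM (ratio 2.63). Samhd1 was lower in the control, at 33.1 against 51.2 CPM, beside 3.49% of all genes that much lower.

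The control sort also holds later cells, and its cells were grouped by RNA of 3 stage genes: Il2ra, which encodes CD25, Bcl11b, and Cd3g of the T-cell receptor complex. A missing UMI does not show that a gene is silent, so the groups are ranges of RNA. The 41 genes summed to 3989 CPM in 1112 cells with neither Il2ra nor Bcl11b, 4605 in 766 cells with Il2ra and no Bcl11b, 5769 in 835 cells with Bcl11b and no Cd3g, and 5699 in 589 cells with both Bcl11b and Cd3g. Every gene of the 41 was lowest in the first group. The highest value fell in the group with Bcl11b and no Cd3g for 23 genes and in the group with both for 18. Some of these orders lay within counting error, as for Orc1 (9.19 against 9.15 CPM) and Fen1 (110 against 109 CPM). The median UMIs per cell were 13814, 15494, 18333 and 15985, and deeper cells are likelier to show a UMI of a stage gene, so depth moves with the groups.

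Rrm2 stood at 80.5, 92.5, 164.2 and 208.6 CPM in these 4 groups, and Uhrf1 at 83.95, 99.4, 152.9 and 176.2 CPM. Ung stood at 64.8, 80.1, 106.3 and 72.4 CPM, and Mcm6 at 287.8, 352.4, 389.0 and 344.4 CPM. All 6 subunits of the Mcm2 to Mcm7 ring and Ung were highest in the group with Bcl11b and no Cd3g, and the other 5 deoxynucleotide genes in the group with both. Between these groups the intervals overlapped for Mcm4, Mcm5, Mcm7 (313.3 against 308.1 CPM) and Dut (636.6 against 641.2 CPM). Thinned cells with 10 or more replication UMIs made up 43.2, 51.2, 68.2 and 54.8% of the groups. Cells with 5 or more G2 and M phase UMIs made up 31.64, 26.58, 41.53 and 50%. Replication RNA was thus most frequent in the group with Bcl11b and no Cd3g, and G2 and M phase RNA in the group with both. The 49 cells of the granulocyte class lay mostly in the first group, and without them its sum was 3893 CPM.

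**Figure D5:**
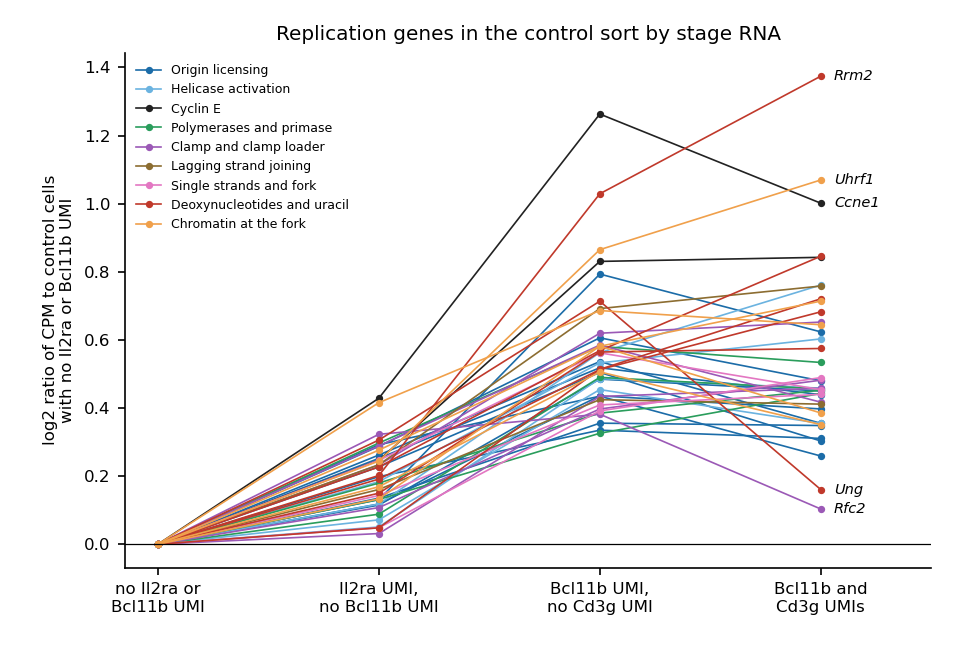
Log2 ratio of CPM (vertical axis) of each of the 41 genes to its level in control cells with no Il2ra or Bcl11b UMI, across 4 groups of control cells by stage RNA (horizontal axis), with lines coloured by role. All lines lie above 0 in the later groups, and Rrm2, Uhrf1 and Ung part ways in the last group.

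The promoter motif did not sort the genes by how far they differed. Without the granulocyte class, the median log2 ratio of Flt3- Ly6d- HSA- over Flt3+ Ly6d- HSA- was -1.03 for the 13 genes with the E2F motif (range -1.46 to -0.58) and -1.04 for the 21 genes without it (range -2.59 to -0.69). Rrm2, Tk1 and Tyms, which were among the steepest, belong to the 6 nucleotide genes with no match to these letters in any window.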

How the data were processed

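UMI counts per gene and cell barcode, deposited by the authors as whole numbers with no normalization, were used for 27998 genes and 8293 barcodes. Per the submitters' processing notes, Cell Ranger 3.0 and mm10 were used. How cells were filtered upstream was not stated in these notes or the labels. The authors' assignment of cells to sorts by hashtag counts, also deposited, was used as it stands, and 345 barcodes with no population were left out. No barcode occurs in another cDNA library, since there is 1. Doublets within a sort were not called.

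The genes, lists and comparisons were chosen with earlier results of these data known, and no list or count is independent support of them. UMIs were summed per sort and scaled to 1000000 (CPM). Ratios carry binomial intervals, those of the control over the mean a log-normal approximation, levels exact Poisson intervals and shares exact Clopper-Pearson intervals, all at 95% and for counting error only. A gene counted as measured at 5 CPM in either sort and as apart at 1.5-fold. No test was run, since each population is 1 sort. Thinning drew 3000 UMIs per cell (seed 53). The granulocyte class needed 7 of 14 markers.

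All 5 levels are given for at most 3 genes per role, those with most UMIs. Rrm2, Tk1, Pole and Ung are named as extremes of a comparison. From each other list at most 4 genes per comparison are named, from those with the largest ratios. Genes named for the split of cells, such as Samhd1, Ung and Mcm2, and the 7 genes lowest in Flt3- Ly6d+, were chosen after their values were seen. Genes with near-identical copies or overlapping neighbours may share reads, since no label or header states how such reads were counted. The size rule was tested on simulated sums that held counting error alone. Those sums had no spread between cells or sorts, so that test does not cover such spread. Tools were Python 3.11.15, numpy 2.4.6, scipy 1.17.1, pandas 2.3.3, R 4.3.3, and edgeR 4.0.16 and DESeq2 1.42.0 for scaling factors alone. Gene positions came from GENCODE M21 and promoter windows from RefSeq. Some genes of the other lists count in the totals but are not reported here by name.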

Additional observations from a re-analysis of the deposited data

Results flagged for a closer look

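The 345 barcodes that the authors assigned to no population belong to no comparison. Their median cell held 0.388% of its UMIs in the 41 genes (quartiles 0.222 and 0.556%), above the control sort's median of 0.362%, at a median depth of 29414 UMIs. Of these barcodes, 313 carried a second hashtag at 20% or more of their hashtag counts, with a median of 0.394%, and the other 32 had a median of 0.376%.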

How the results depend on the processing

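No paired analysis was possible because each population is 1 sort with no replicate. The direction of the summed 41 genes was the same in all 5 comparisons under all 11 alternatives, which were scaling by DESeq2 or edgeR TMM factors, leaving mitochondrial and ribosomal genes out of the totals, no minimum CPM, equal weight for each cell, thinning, and cells left out by depth, hashtag share, granulocyte markers or G2 and M phase UMIs. Of these, the hashtag share left out no cell and a minimum CPM cannot change a sum, so neither bears on the sums. Counts of genes 1.5-fold apart stayed within 1.5 times of the values over all cells for Flt3- Ly6d- HSA- over Flt3+ Ly6d- HSA- (24 to 40) and for Flt3- Ly6d+ over Flt3+ HSA+ (29 to 39). For Flt3+ HSA+ over Flt3+ Ly6d- HSA- the count of 1 became 7 with equal weight, 11 after thinning, 2 without the 5% of cells with most UMIs, 3 without the granulocyte class, 6 without cells with 4 or more markers, and 7 in cells with no G2 and M phase UMI. For Flt3- Ly6d+ over Flt3- Ly6d- HSA- the count of 1 became 3, 4, 3, 14 and 19 under the first 5 of these. In cells with no G2 and M phase UMI that count was again 1, with Rrm2 in place of Pole. For the control the count of 11 became 0 in cells with no G2 and M phase UMI. In those cells 5 ratios of genes counted over all cells changed direction: Pole in Flt3- Ly6d+ over Flt3- Ly6d- HSA- (0.941), Ccne2 in Flt3- Ly6d+ over Flt3+ HSA+ (1.07), and Orc1 (0.950), Ccne1 (0.910) and Tk1 (0.782) in the control. The causes were not tested. No library could be left out, since there is 1.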

Other observations

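Replication-linked histone RNA, which is read out in S phase and carries no poly(A) tail in most dividing cells, was measured beside the 41 genes. Among thinned cells the mean was 1.59 histone UMIs in 3000 for Flt3+ Ly6d- HSA- cells with no G2 and M phase UMI, 2.02 for cells with 1 to 4 and 7.12 for cells with 5 or more. In Flt3+ HSA+ the means were 1.40, 1.74 and 9.14. Over the same bins the mean replication UMIs were 7.25, 10.9 and 13.9 in Flt3+ Ly6d- HSA-, and 9.54, 13.7 and 14.8 in Flt3+ HSA+. Hist1h2bc stood apart from the other measured histone genes between sorts: it was lower in Flt3+ HSA+ than in Flt3+ Ly6d- HSA-, at 36.7 against 99.2 CPM, and higher in Flt3- Ly6d+ than in Flt3+ HSA+, at 66.1 against 36.7 CPM.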
